A study of Mus musculus with 63 samples.

Results

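Pancreatic β cells of diabetic ob/ob mice were compared with those of heterozygous ob/+ mice. The rule took every library whose label ends in T2D (7 animals, diabetic) or T2H (9 animals, not diabetic), which is 16 of the 63 libraries of the series. Each library held mRNA of sorted β cells of 1 mouse. The series also covers β cells of embryos, newborns, adult ICR mice and a NOD-based model of type 1 diabetes.

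All 16 mice carried Cherry/+ and a Cre under the Ins2 promoter, so that cells with an active Ins2-Cre were red and could be sorted as mCherry+ cells from trypsin-treated islets. The T2D mice were Ob/Ob on a strain given as BTBR/mix, 58 to 78 days old (4 females, 3 males), and weighed 37.24 to 60.95 g. Their blood glucose read 408 and 534 mg/dl in 2 animals and above 600 mg/dl in the other 5. The T2H mice were Ob/+ on a strain given as BTBR, 53 to 179 days old (4 females, 5 males), weighed 33.41 to 60.4 g and had 103 to 271 mg/dl glucose. In each group 2 animals had the genotype Ins2-Cre/Ins2-Cre and the others Ins2-Cre/+. The ob genotype, the diabetes and the strain label change together, so they cannot be told apart. The T2D animals match only the 4 T2H animals of 83 days or less in age. RNA came from TRIzol in 8 of 9 T2H and 4 of 7 T2D libraries and from Qiagen columns in the rest, so extraction was a term in every model unless stated.

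The ob allele is a mutation of Lep, the gene of the hormone leptin, which fat tissue releases and which limits food intake. Mice without leptin overeat and become obese and insulin resistant, and on the BTBR background their β cells fail and severe diabetes follows. A mature β cell takes up glucose through the transporter GLUT2, breaks it down, closes ATP-sensitive potassium channels and releases insulin from dense granules. Under lasting high glucose β cells are known to lose transcription factors and genes of this machinery and to gain genes of progenitor or other endocrine cells, a process called dedifferentiation. Lep could not check the genotype labels: 3 expected counts lay on it over the T2H libraries and 0 over the T2D libraries.

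Libraries held 23894167 to 65518931 expected counts in T2H (median 36156993) and 31334215 to 73839270 in T2D (median 38259908). Ins1 and Ins2 together took 13.6 to 58.8% of a T2H library (mean 36.8% ± 15, SD, n = 9) and 14.3 to 50.3% of a T2D library (31.8% ± 11.9, n = 7). The groups overlapped over nearly their whole ranges, and the difference of -5.08 percentage points gave p = 0.477 in a two-sided exact permutation test. Against the 4 T2H animals of 83 days or less the difference was 6.82 points (p = 0.388, exact permutation test), with the opposite sign. In bulk libraries, fewer cells of a type and less RNA per cell cannot be told apart.

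Other pancreatic cells left RNA in both groups. The 24 acinar markers found (genes of digestive enzymes) took 0.121 to 29.9% of the T2H libraries and 0.00855 to 34.7% of the T2D libraries, and none of these markers was called, where called means an adjusted p below 0.05 as described next. Amy2a2, Amy2a3, Amy2a4 and Amy2a5, near-identical copies of the pancreatic amylase gene with the same values in each library, are on no list and were called lower in T2D (211 to 149558 CPM in T2H, 3.82 to 13092 CPM in T2D; log2 fold change -4.37 ± 1.42, SE, adjusted p = 0.0241 in edgeR), with wide overlap. The myeloid markers (macrophage genes) took 0.00653 to 0.133% in T2H and 0.0311 to 0.303% in T2D, and 9 of 20 were called higher. Alpha cell markers took 0.0781 to 0.357% in T2H and 0.212 to 0.753% in T2D. Of these 12 markers, 2 were called higher and the glucagon gene Gcg was not. Duct markers took 0.041 to 0.115% and 0.0893 to 0.134%. The defining β cell markers were present in every library.

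**Figure D1:**
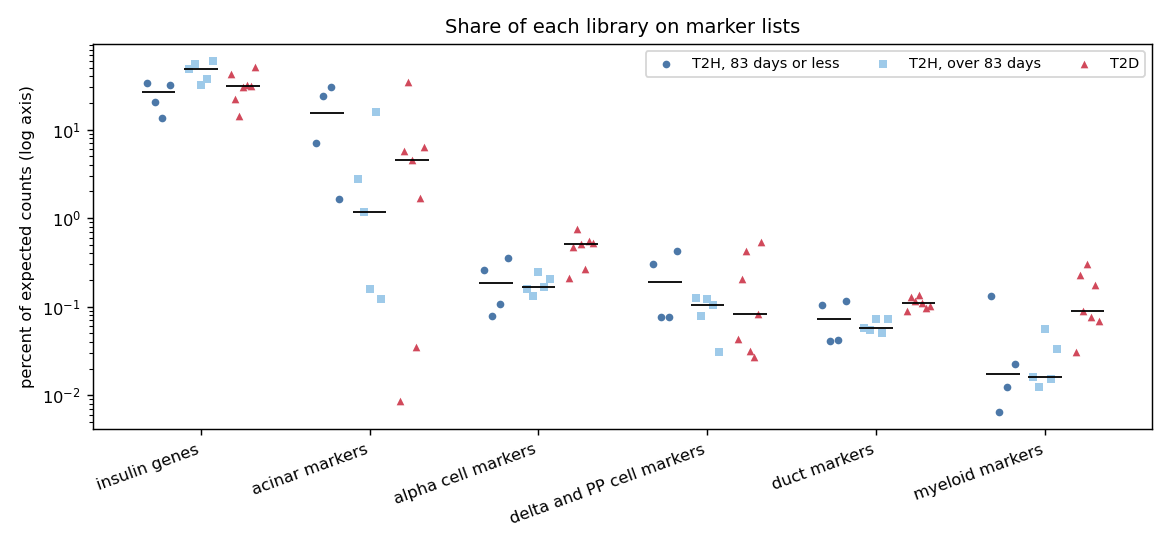
Percent of each library's expected counts on the insulin genes and on marker lists of other cells (log axis), 1 point per library: T2H animals of 83 days or less, T2H animals over 83 days, and T2D animals, with a line at each median. Insulin shares overlap between groups, while most T2D libraries lie above most T2H libraries for alpha, duct and myeloid markers.

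Of 16092 genes tested with edgeR's quasi-likelihood test, 2937 (18.3%) differed between T2D and T2H at an adjusted p below 0.05, 1569 (9.75%) higher in T2D and 1368 (8.5%) lower. A difference of at least 2-fold was fitted for 41.3% of the genes called higher and 55.4% of those called lower. The median log2 fold change over all genes tested was 0.01. For 363 genes (2.26%) no T2D library overlapped any T2H library, and 356 of these were called. Levels are counts scaled to 1000000 per library and by TMM factors (CPM), given as lowest to highest library with the median. Fold changes are log2 values of T2D over T2H from the edgeR fit, ± their standard error (SE), with the Benjamini-Hochberg adjusted p over all genes. Where the genes of a list are counted, these shares of all genes are the background.

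Genes of mature β cells were lower in ob/ob mice. Of 19 maturity markers, 12 fell, 1 rose and 6 were not called, and the list's median log2 fold change was -0.97. The rises were 2 without T2H 2, T2H 9 or T2D 2. Whether each member of the list marks maturity in these cells was not tested. Ucn3 (chr13:3940688-3945349 in GRCm38), which encodes urocortin 3, a peptide released with insulin and a marker of mature β cells, stood at 308 to 882 CPM (median 610) in T2H and at 74.5 to 248 CPM (median 158) in T2D. Every T2D library lay below every T2H library (log2 fold change -2.03 ± 0.31, adjusted p = 2.11e-06). Slc2a2 (chr3:28697903-28728361), the gene of GLUT2, fell from 158 to 490 CPM (median 350) to 36 to 117 CPM (median 67.9), again without overlap (-2.20 ± 0.27, adjusted p = 1.89e-08). Trpm5 (chr7:143071529-143094642), a calcium-activated cation channel of the β cell membrane, went from 36.6 to 91.3 CPM (median 59.1) to 2.95 to 12.5 CPM (median 7.22), a 9.42-fold fall (-3.24 ± 0.31, adjusted p = 2.55e-11). For these 3 genes the ranges of the groups are apart, and the median T2D library held less than the lowest T2H library.

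Npy, a neuropeptide gene, was the list member with the deepest fall: 13.4 to 424 CPM (median 141) in T2H and 0.647 to 12.2 CPM (median 2.94) in T2D (-5.32 ± 0.69, adjusted p = 7.34e-08). Its T2H libraries themselves differed widely, and the highest T2D library came just under the lowest T2H library. Sytl4, which encodes the granule docking protein granuphilin, fell from 146 to 454 CPM (median 319) to 50.2 to 136 CPM (median 75.8) (-1.93 ± 0.28, adjusted p = 6.45e-07). Slc30a8, the zinc transporter of insulin granules, fell from 268 to 691 CPM (median 484) to 109 to 247 CPM (median 204.5) (-1.45 ± 0.23, adjusted p = 5.76e-06). Neither gene's groups overlapped. Cox6a2, a subunit of cytochrome c oxidase, fell by 3.53 on the log2 scale but overlapped between groups (4.86 to 188 CPM (median 61) against 2.43 to 10.9 CPM (median 7.11); -3.53 ± 0.74, adjusted p = 0.000418). G6pc2, the islet glucose-6-phosphatase, which returns glucose-6-phosphate to glucose, had 1613 to 4304 CPM (median 2855) in T2H and 1124 to 2370 CPM (median 1649) in T2D (-0.84 ± 0.22, adjusted p = 0.00338), with overlap. Rgs16, a regulator of G protein signalling that is also known to respond to glucose, was the member that rose: 2.72 to 15.2 CPM (median 8.18) in T2H and 32.3 to 86.9 CPM (median 47.7) in T2D, with no overlap (2.86 ± 0.29, adjusted p = 1.6e-10).

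The transcription factors of the β cell split. Of 27, 9 fell, 1 rose and 17 were not called. Nkx6-1, which keeps β cells from taking other endocrine fates, went from 96.9 to 193 CPM (median 150) in T2H to 45.1 to 76.1 CPM (median 57.9) in T2D without overlap (-1.36 ± 0.22, adjusted p = 5.91e-06). Mafa, an activator of insulin transcription in mature cells, went from 31.3 to 156 CPM (median 113) to 3.79 to 54.6 CPM (median 23.95) (-1.68 ± 0.44, adjusted p = 0.00445). The groups overlapped for Mafa through library T2H 9 alone, which had 31.3 CPM. Without T2H 9 the log2 fold change was -1.82. Insm1, a factor of endocrine differentiation, fell from 39.8 to 76.5 CPM (median 59.8) to 12.9 to 49.8 CPM (median 22.9) (-1.11 ± 0.26, adjusted p = 0.00118), and Pdx1, a master regulator of pancreas and β cells, fell less (65.6 to 120 CPM (median 105) against 47.3 to 91.6 CPM (median 61.1); -0.62 ± 0.19, adjusted p = 0.0139). Both overlapped between groups. Rfx6, a factor needed for islet development, was the member that rose, from 24.5 to 57.2 CPM (median 35.6) to 40.7 to 104 CPM (median 87.8) (1.15 ± 0.21, adjusted p = 4.85e-05), with some overlap. With a term for each library's myeloid share in the model, 3 of these 27 factors were called lower in place of 9. The part of the myeloid share in this group was not tested further.

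In the path from glucose to insulin release, 11 of 34 genes fell and 4 rose, with a list median of -0.32. The rises were 2 without T2D 2 and 1 when only the compared groups were fitted. Kcnj11, the pore subunit of the ATP-sensitive potassium channel, fell from 7.84 to 13.1 CPM (median 10.6) to 1.79 to 5.61 CPM (median 3.89) without overlap (-1.52 ± 0.24, adjusted p = 5.21e-06). Its partner Abcc8, the sulfonylurea receptor, had 493 to 877 CPM (median 777) and 262 to 756 CPM (median 402) and was not called (-0.49 ± 0.23, adjusted p = 0.125). The transporter and the channel pore were lower at the level of RNA, while the regulatory subunit of the channel missed the threshold. Pcx, pyruvate carboxylase, which feeds pyruvate into the mitochondrial cycle, went from 53.2 to 159 CPM (median 108) to 17.3 to 58.1 CPM (median 34.4) (-1.62 ± 0.30, adjusted p = 5.14e-05).

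The incretin receptors, through which gut hormones raise insulin release, were also lower. Gipr, the receptor of GIP, had 8.53 to 59.5 CPM (median 35.8) in T2H and 4.32 to 14.3 CPM (median 9.14) in T2D (-1.62 ± 0.38, adjusted p = 0.0013). Glp1r, the receptor of GLP-1, had 18.7 to 210 CPM (median 99) and 4.3 to 77 CPM (median 33.7) (-1.55 ± 0.57, adjusted p = 0.0484), and its call was lost in 19 of 32 alternative settings. Leaving out any 1 of 11 libraries (T2H 2, 4, 5, 6 or 7, or T2D 1, 3, 4, 5, 6 or 7) ended the Glp1r call with a log2 fold change of -1.63 to -1.39.

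Among genes of insulin and its granule, 5 of 24 fell and 6 rose; leaving out T2D 2 made the rises 10. Ins1 went from 64776 to 206235 CPM (median 88885) to 38731 to 145613 CPM (median 49350) (-1.02 ± 0.28, adjusted p = 0.00566), with overlap, and was the most abundant of the genes lower by at least 2-fold. Ins2 was not called (-0.36 ± 0.29, adjusted p = 0.418). Iapp, the gene of the amyloid peptide secreted with insulin, had 12305 to 46240 CPM (median 21027) and 21364 to 56311 CPM (median 39815) (0.54 ± 0.23, adjusted p = 0.097) and was not called. The proinsulin-processing enzymes Pcsk1 (-0.71 ± 0.27, adjusted p = 0.0578) and Pcsk2 (0.13 ± 0.22, adjusted p = 0.728) were not called. Nucb2, the precursor of nesfatin, rose from 249 to 829 CPM (median 379) to 719 to 1981 CPM (median 854) (1.23 ± 0.26, adjusted p = 0.000445).

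**Figure D2:**
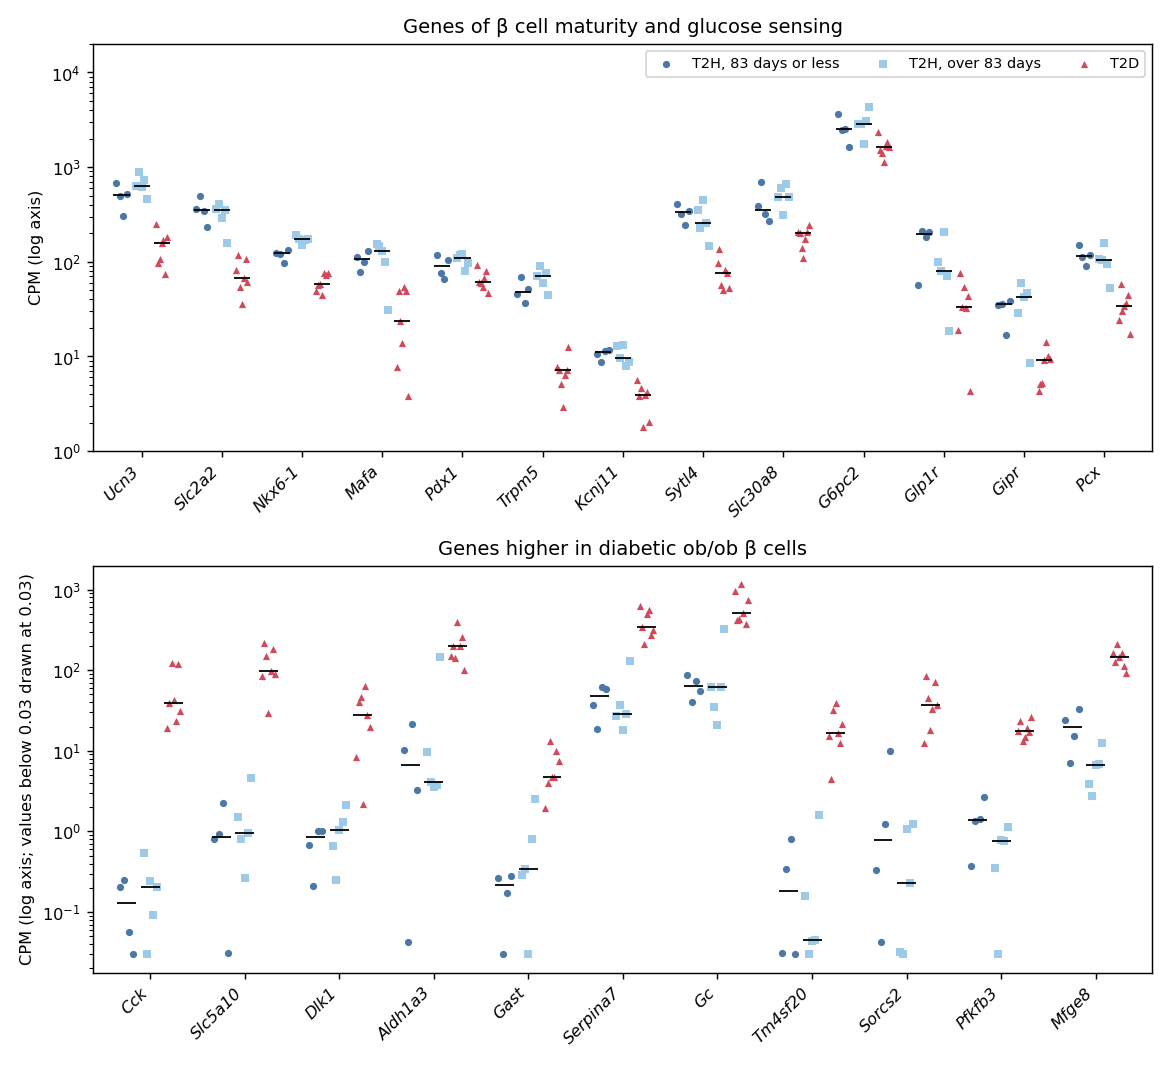
CPM of single genes in every library (log axis), upper panel genes of maturity and glucose sensing, lower panel genes higher in T2D, for T2H animals of 83 days or less, T2H animals over 83 days, and T2D animals, with a line at each median. Ucn3, Slc2a2, Nkx6-1, Trpm5, Kcnj11, Sytl4 and Slc30a8 are apart in the upper panel. In the lower panel all genes but Aldh1a3 and Gast are apart.

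Several genes of progenitors and of dedifferentiated β cells were higher: 9 of 26 tested rose, none fell, and 17 were not called. Without T2H 9, 1 fell. The members of this list were chosen with earlier results of these data known, so its count is not independent of these data. Cck (chr9:121489824-121495694), the gene of the gut hormone cholecystokinin, was at 0 to 0.54 CPM (median 0.202) in T2H and at 19.1 to 124 CPM (median 38.9) in T2D. Every T2D library lay far above every T2H library, and the fitted fold was 276 (8.11 ± 1.05, adjusted p = 7.3e-08). Slc5a10 (chr11:61672782-61720817), a sodium-coupled sugar transporter, stood at 0.0309 to 4.61 CPM (median 0.928) and 29.4 to 217 CPM (median 97.1) (6.35 ± 0.78, adjusted p = 2.35e-08). Dlk1 (chr12:109452485-109463336), a Notch-related surface protein of progenitor cells, stood at 0.211 to 2.1 CPM (median 1.02) and 2.18 to 62.9 CPM (median 27.5) (5.03 ± 0.51, adjusted p = 1.7e-10). All 3 genes were apart between the groups, from a T2H level of only a few CPM.

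Aldh1a3 (chr7:66390892-66427477), an aldehyde dehydrogenase used as a marker of failing β cells, had 0.0422 to 146 CPM (median 4.13) in T2H and 100 to 395 CPM (median 198) in T2D (3.74 ± 0.89, adjusted p = 0.00187). The overlap came from T2H 9, the male of 179 days with 271 mg/dl glucose and 60.4 g, which had 146 CPM. T2H 9 was also the only T2H library from a Qiagen column. With TRIzol libraries alone the log2 fold change of Aldh1a3 was 5.15, and with the 3 T2D and 1 T2H Qiagen libraries it was 0.01. Age, glucose, weight and extraction of this animal cannot be told apart. Gast, the gastrin gene of the fetal pancreas, had 0 to 2.51 CPM (median 0.278) and 1.94 to 13.4 CPM (median 4.74) (3.64 ± 0.78, adjusted p = 0.000465), and its highest T2H library was again T2H 9.

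Serpina7, the gene of thyroxine-binding globulin, rose from 18.1 to 130 CPM (median 37) to 212 to 617 CPM (median 347) without overlap (3.12 ± 0.50, adjusted p = 6.44e-06). Gc, the gene of vitamin D-binding protein, which alpha cells also express, rose from 20.9 to 324 CPM (median 61) to 369 to 1169 CPM (median 506.8) without overlap (3.05 ± 0.63, adjusted p = 0.00037). Neurog3, the factor that starts endocrine differentiation, had 0 to 4.66 CPM (median 0.802) and 0.18 to 3.96 CPM (median 0.835) and was not called (-0.41 ± 0.81, adjusted p = 0.774). Of 25 genes that β cells normally keep silent, 1 rose and 1 fell. The rises were 3 without T2H 1 and 2 without T2H 5, and none fell without T2H 6, T2H 8 or T2D 1, 2, 4, 5 or 6. Ldha, the lactate dehydrogenase of that list, had 2.1 to 32.5 CPM (median 6.33) and 1.16 to 28.9 CPM (median 11.8) and was not called (-0.25 ± 0.59, adjusted p = 0.818). Fbp1, fructose-1,6-bisphosphatase, had 15.1 to 83.5 CPM (median 34.6) and 18.3 to 62.7 CPM (median 44.5) and was not called (-0.15 ± 0.39, adjusted p = 0.845). Fxyd6, on the list of delta and PP cells, was the called member of its 10 genes (2 were called without T2H 9), at 5.66 to 32.4 CPM (median 19.8) and 49.7 to 125 CPM (median 90.2) without overlap (2.31 ± 0.34, adjusted p = 1.34e-06).

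Other large rises came from low T2H levels. Tm4sf20, a membrane protein gene, had 0 to 1.62 CPM (median 0.0453) and 4.46 to 38.9 CPM (median 16.8) (6.04 ± 1.14, adjusted p = 8.67e-05). Sorcs2, a sorting receptor, had 0 to 9.88 CPM (median 0.328) and 12.6 to 84 CPM (median 37.5) (4.83 ± 0.83, adjusted p = 1.97e-05), and Cartpt, the gene of a neuropeptide, had 0 to 3.72 CPM (median 0.278) and 0.858 to 43.9 CPM (median 19.7) (4.83 ± 1.05, adjusted p = 0.000614). The first 2 were apart between the groups and Cartpt was not. Mfge8, a secreted protein that bridges phagocytes and dying cells, rose from 2.78 to 32.9 CPM (median 7.05) to 92.3 to 213 CPM (median 147) without overlap (3.41 ± 0.52, adjusted p = 2.33e-06). Enpp1, an ectonucleotide pyrophosphatase, had 0 to 3.63 CPM (median 0.162) and 4.79 to 39.9 CPM (median 8.15) (3.84 ± 0.94, adjusted p = 0.00243), also apart.

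The largest falls ended near 0 in T2D. Syt10, a synaptotagmin gene, went from 3.68 to 34 CPM (median 14.6) to 0 to 0.516 CPM (median 0.117) (-6.64 ± 0.69, adjusted p = 2.41e-10). Crhr1, the receptor of corticotropin-releasing hormone, went from 1.98 to 18.6 CPM (median 13.1) to 0 to 0.404 CPM (median 0.16) (-5.85 ± 0.58, adjusted p = 4.43e-11). In both, the highest T2D library was below the lowest T2H library. Penk, the enkephalin precursor, went from 1.66 to 109 CPM (median 13) to 0 to 1.96 CPM (median 0.321) (-5.57 ± 0.92, adjusted p = 1.02e-05), Slc39a8, a zinc importer, from 0.89 to 39.3 CPM (median 17.4) to 0.266 to 3.1 CPM (median 0.852) (-4.32 ± 0.61, adjusted p = 5.64e-07), and Acvr1c, an activin receptor, from 2.95 to 33 CPM (median 10.4) to 0 to 3.88 CPM (median 0.586) (-3.97 ± 0.56, adjusted p = 5.4e-07). The overlap came from T2H 1 and T2D 7 for Penk, from T2H 9 for Slc39a8 and from T2D 2 for Acvr1c. Of 30 receptors of neurotransmitters and peptides tested, 5 rose and 5 fell; leaving out T2D 4 made the rises 3. Crhr1, Gipr, Glp1r and Vipr1, a receptor of vasoactive intestinal peptide (-1.17 ± 0.23, adjusted p = 0.00012), were among those that fell.

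**Figure D3:**
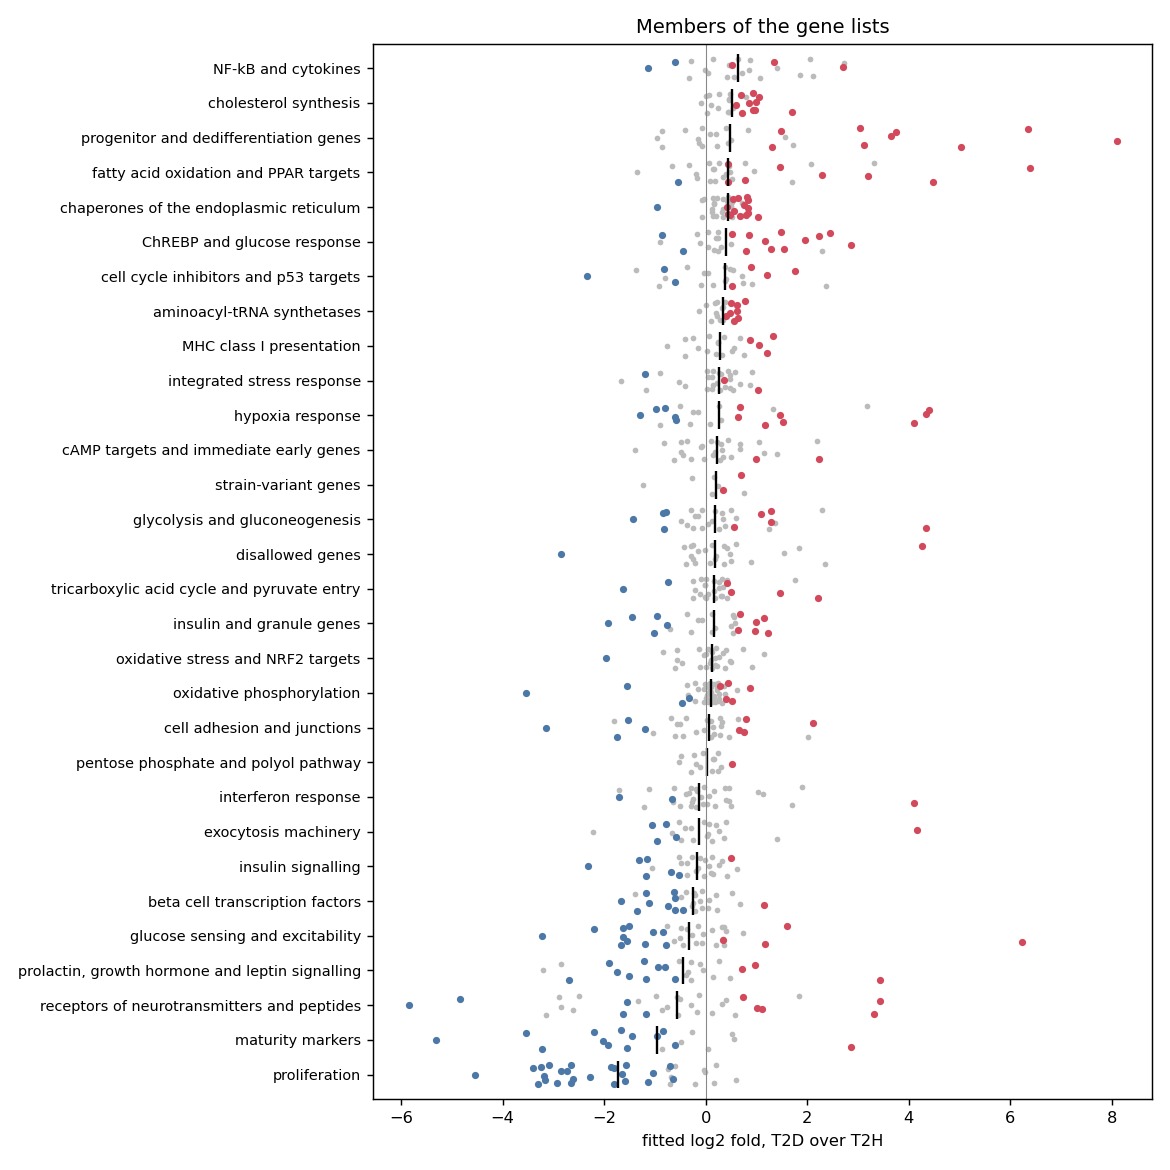
Fitted log2 fold change of T2D over T2H for every tested member of 30 gene lists, 1 point per gene, ordered by list median (vertical line): red called higher, blue called lower, grey not called. Proliferation (median -1.73) and maturity markers (-0.97) lie lowest; the other lists have medians between -0.56 and 0.63.

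Genes of dividing cells were lower in the diabetic mice: 24 of 34 proliferation genes fell, none rose and 10 were not called, with a median log2 fold change of -1.73. Without T2H 1, T2H 9, T2D 2 or T2D 7, 1 rose. Top2a, the topoisomerase of replicating chromosomes, had 2.61 to 28.1 CPM (median 9.61) in T2H and 0.248 to 2.08 CPM (median 1.08) in T2D, apart (-3.40 ± 0.51, adjusted p = 1.98e-06). Mki67, the gene of the Ki-67 antigen of cycling cells, had 2.99 to 19.4 CPM (median 9.66) and 0.174 to 2.92 CPM (median 2.01), apart by a narrow gap (-2.66 ± 0.54, adjusted p = 0.000248). Ccnb1, cyclin B1, had 4.41 to 22.5 CPM (median 5.61) and 0.223 to 4.17 CPM (median 1.09) (-2.85 ± 0.52, adjusted p = 5.29e-05), and Birc5, survivin, had 0.927 to 10.7 CPM (median 4.81) and 0.301 to 2 CPM (median 0.67) (-2.66 ± 0.43, adjusted p = 6.35e-06). Both groups held these genes at low levels, and in T2D every library had between 0.174 and 4.17 CPM of each. Ccnd2, the abundant D cyclin of β cells, fell from 709.01 to 2118 CPM (median 1248) to 371 to 949 CPM (median 629) (-1.03 ± 0.21, adjusted p = 0.000186), with overlap.

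Of 24 inhibitors of the cell cycle and targets of p53, 4 rose and 3 fell. Cdkn2c, the inhibitor p18, fell from 7.05 to 15.7 CPM (median 11.4) to 1.54 to 3.52 CPM (median 2.31) without overlap and had the smallest adjusted p of its list (-2.33 ± 0.22, adjusted p = 1.01e-11). The p53 targets Ccng1 (69.2 to 149 CPM (median 103) against 156 to 420 CPM (median 244); 1.21 ± 0.23, adjusted p = 8.67e-05) and Phlda3 (4.39 to 17.1 CPM (median 12.3) against 21.7 to 47.7 CPM (median 37.7); 1.76 ± 0.29, adjusted p = 9.16e-06) rose and were apart. Cdkn1a, the inhibitor p21, rose with overlap (45.8 to 165 CPM (median 63.1) against 107 to 298 CPM (median 135); 0.89 ± 0.25, adjusted p = 0.00735). Leaving out T2D 6 gave 1 gene of the list called lower in place of 3.

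Part of the folding machinery of the endoplasmic reticulum was higher at the level of RNA in ob/ob mice, with a dependence on single libraries. Proinsulin is folded in this compartment by chaperones such as BiP, and a load above its capacity starts the unfolded protein response, whose factors ATF6 and XBP1 bind the endoplasmic reticulum stress element (CCAAT and CCACG with 9 bases between them) in promoters of chaperone genes. Of 37 chaperone and quality-control genes 14 rose, 1 fell and 22 were not called. The element lay, on either strand, in the promoter window (250 bases before to 50 after the start) of 22 of 12746 tested genes with a window in the RefSeq table (0.173%), of 10 of 32 list members with a window (31.2%), of 5 of 1245 genes called higher (0.402%) and of 2 of 1102 called lower (0.181%). The 5 called higher are Hspa5, Hsp90b1, Creld2, Dnajc3 and Pdia6, all on the chaperone list, and Ero1b and Ptgdr2 are the 2 called lower. Against the T2H animals of 83 days or less none of the 5 was called (0.43 to 1.21, edgeR adjusted p 0.0544 to 0.151). Calr (0.14), Canx (0.13), Derl3 (-0.04) and Syvn1 (0.34) hold the element too and were not called against all T2H animals. Ptgdr2, a prostaglandin receptor gene, had a mean of only 0.134 CPM in T2H and 0 in T2D. The 250 bases upstream of the 5 genes that rose and of Ero1b, which holds the element and fell, are shown 5′ to 3′ on the gene's strand (RefSeq, GRCm38.p6), with the element in capitals, so that its letters and place can be compared.
Hspa5: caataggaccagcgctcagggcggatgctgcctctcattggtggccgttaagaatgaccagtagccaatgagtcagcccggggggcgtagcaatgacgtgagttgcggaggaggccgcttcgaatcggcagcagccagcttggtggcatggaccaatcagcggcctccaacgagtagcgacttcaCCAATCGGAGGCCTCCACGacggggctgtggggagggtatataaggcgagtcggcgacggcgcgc
Hsp90b1: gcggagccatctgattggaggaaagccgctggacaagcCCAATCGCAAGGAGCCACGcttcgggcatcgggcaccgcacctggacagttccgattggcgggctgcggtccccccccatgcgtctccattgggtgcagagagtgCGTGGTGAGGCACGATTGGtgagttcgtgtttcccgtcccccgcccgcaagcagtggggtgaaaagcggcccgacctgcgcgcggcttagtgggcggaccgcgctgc
Creld2: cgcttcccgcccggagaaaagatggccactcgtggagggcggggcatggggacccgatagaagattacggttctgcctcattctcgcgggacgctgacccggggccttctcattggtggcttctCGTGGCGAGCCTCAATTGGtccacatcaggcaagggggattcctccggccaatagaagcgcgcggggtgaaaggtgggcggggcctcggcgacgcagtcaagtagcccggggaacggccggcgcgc
Dnajc3: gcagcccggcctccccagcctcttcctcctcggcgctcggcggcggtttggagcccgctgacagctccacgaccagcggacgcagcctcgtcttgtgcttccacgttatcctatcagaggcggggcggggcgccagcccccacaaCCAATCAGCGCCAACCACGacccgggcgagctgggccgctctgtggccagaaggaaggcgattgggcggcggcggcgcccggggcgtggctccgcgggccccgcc
Pdia6: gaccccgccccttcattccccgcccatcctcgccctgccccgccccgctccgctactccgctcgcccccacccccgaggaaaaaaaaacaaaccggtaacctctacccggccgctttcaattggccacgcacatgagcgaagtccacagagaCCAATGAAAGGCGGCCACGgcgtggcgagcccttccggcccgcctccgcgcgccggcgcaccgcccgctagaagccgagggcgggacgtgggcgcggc
Ero1b: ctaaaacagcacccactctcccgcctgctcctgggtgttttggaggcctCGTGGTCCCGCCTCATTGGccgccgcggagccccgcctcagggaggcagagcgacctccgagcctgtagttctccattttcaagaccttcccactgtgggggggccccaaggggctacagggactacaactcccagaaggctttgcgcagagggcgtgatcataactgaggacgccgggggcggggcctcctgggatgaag
These stretches are chr2:34771840-34772089 (plus strand), chr10:86705445-86705694 (minus strand), chr15:88819396-88819645 (plus), chr14:118937682-118937931 (plus), chr12:17266339-17266588 (plus) and chr13:12565633-12565882 (plus). Hsp90b1 holds the element at 2 places. In Creld2, Ero1b and the second place in Hsp90b1 it reads on the opposite strand. The element is a match of letters and says nothing of binding.

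Hspa5, the gene of the chaperone BiP, had 1904 to 4524 CPM (median 2323) in T2H and 3302 to 6970 CPM (median 4092) in T2D (0.76 ± 0.21, adjusted p = 0.00589). Pdia6, a protein disulfide isomerase, had 807 to 2217 CPM (median 1020) and 1568 to 4177 CPM (median 1748) (0.79 ± 0.23, adjusted p = 0.0106). Creld2, a secreted and luminal stress protein, had 96.8 to 665 CPM (median 145) and 305 to 798 CPM (median 334) (1.03 ± 0.33, adjusted p = 0.0224). The groups overlapped in each of these genes: T2H 1 held the highest T2H value of Hspa5 and T2H 9 that of Pdia6 and Creld2. Dnajc3, a BiP co-chaperone, had 367 to 1183 CPM (median 466) and 751 to 1784 CPM (median 835) (0.83 ± 0.22, adjusted p = 0.00467), and Hsp90b1, the chaperone GRP94, had 916 to 2038 CPM (median 1206) and 1545 to 2220 CPM (median 1752) (0.47 ± 0.15, adjusted p = 0.0246). Derl1, a channel for export of misfolded proteins, rose without overlap (162 to 219 CPM (median 179) against 282 to 398 CPM (median 322); 0.82 ± 0.12, adjusted p = 8.43e-07). Ero1b, the oxidase that supplies disulfide bonds in β cells, was the member that fell: 1414 to 2288 CPM (median 1830) in T2H and 684 to 1344 CPM (median 989) in T2D, without overlap (-0.97 ± 0.19, adjusted p = 0.000148).

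The count of chaperone genes called higher moved with the libraries used. It was 20 with TRIzol libraries only and 0 with Qiagen libraries only, where T2H 9 is the single T2H library. It was 7 without T2D 1 and 8 with a term for myeloid share. It was 9 without the libraries of the whole series above 20% acinar share, among them T2H 4, T2H 5 and T2D 3. Against the 4 T2H animals of 83 days or less, 4 of the 37 genes were called in all, one of them Ero1b, which was lower. Without T2D 1 the log2 fold changes fell to 0.71 for Creld2, 0.57 for Dnajc3 and 0.50 for Pdia6, and none of these 3 was then called. T2D 1 and T2H 1 were the deepest libraries of their groups (73839270 and 65518931 expected counts). Their sequencing S numbers, 17 and 18, recur on T2D 3 and T2D 4. The sequencing run is not labelled, and the part of run or depth in these values was not tested. Hsp90b1 was not called when T2H 5, T2H 8, T2D 1 or T2D 4 was left out (0.40 to 0.44).

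Fewer genes of the integrated stress response, the arm of the stress response that slows translation, were called: 2 of 29 rose and 1 fell. Leaving out 1 library gave 1 rise (T2H 2, 3, 4 or 7 or T2D 1, 3, 5 or 7) or 4 (T2H 8 or T2D 2), and 2 falls without T2D 3. Ppp1r15a, the phosphatase subunit that restores translation, rose from 34.8 to 116 CPM (median 50.4) to 81.1 to 178 CPM (median 105) (1.03 ± 0.23, adjusted p = 0.000751). Ddit3, the gene of the factor CHOP, had 24.1 to 61.6 CPM (median 36.5) and 41.1 to 114 CPM (median 54.1) and was not called (0.47 ± 0.18, adjusted p = 0.0625). Of 20 aminoacyl-tRNA synthetases, 8 rose and none fell, among them Nars (143 to 265 CPM (median 197) against 232 to 465 CPM (median 323); 0.77 ± 0.15, adjusted p = 0.000166) and Rars (33.1 to 55.3 CPM (median 48) against 57.6 to 94 CPM (median 67.9); 0.63 ± 0.13, adjusted p = 0.000362). Rars was apart between the groups and Nars was not. TGATGNAAT, an element bound by ATF4, a factor of this response, lay in the window of 85 tested genes (0.667%), 6 of them called higher (0.482%) and 8 called lower (0.726%). Among members with a window, it lay in 3 of 13 aminoacyl-tRNA synthetases (23.1%) and 2 of 24 integrated stress response genes (8.33%).

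**Figure D4:**
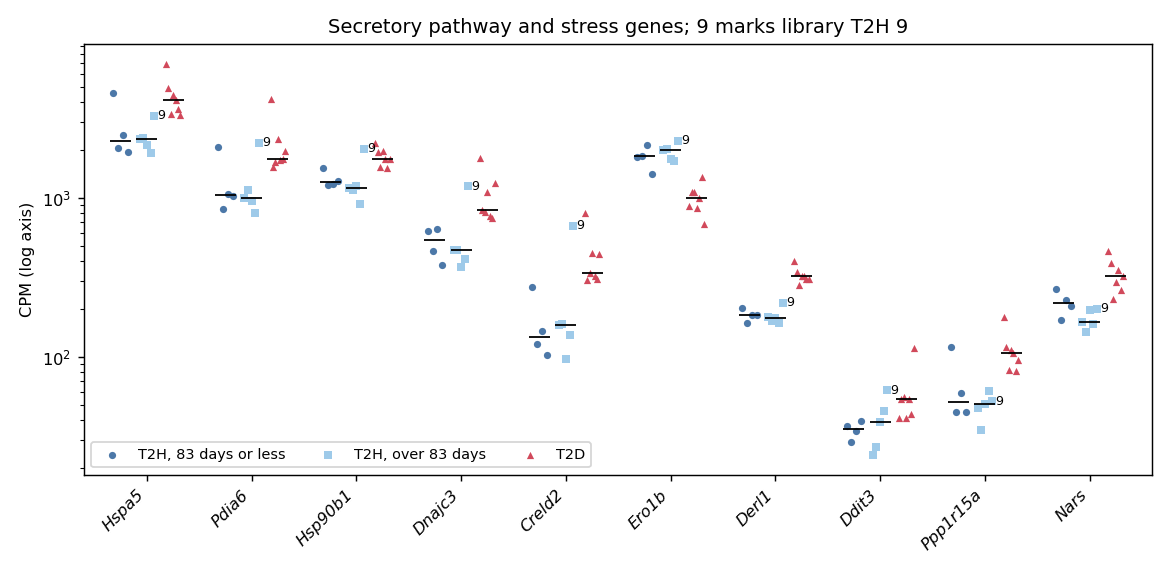
CPM of 10 genes of the secretory pathway and the stress response in every library (log axis), for T2H animals of 83 days or less, T2H animals over 83 days, and T2D animals, with a line at each median; the digit 9 marks library T2H 9. T2H 9 lies within the T2D range for Pdia6, Hsp90b1, Dnajc3 and Creld2, while Derl1 and Ero1b are apart between the groups.

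Cargo and membrane proteins of the secretory and endosomal route were among the most abundant genes at least 2-fold higher. Tmed10 and Tmed3 encode p24 proteins of vesicles between the endoplasmic reticulum and the Golgi. Tmed10 had 286.2 to 806 CPM (median 395) and 533 to 1893 CPM (median 821) (1.05 ± 0.21, adjusted p = 0.00026), and Tmed3 had 360 to 1209 CPM (median 527.95) and 805 to 2103 CPM (median 1020) (1.03 ± 0.23, adjusted p = 0.000843). Cd63, a tetraspanin of late endosomes and granules, had 397 to 1125 CPM (median 545) and 720 to 2265 CPM (median 1215) (1.02 ± 0.18, adjusted p = 3.18e-05). The groups overlapped for these 3 genes, and without T2D 1 the log2 fold change of Tmed10 was 0.70. Lgals3bp, a secreted galectin-binding glycoprotein, rose from 176 to 405 CPM (median 201) to 547 to 908 CPM (median 693) without overlap (1.5 ± 0.21, adjusted p = 2.96e-07).

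Genes that respond to glucose through the factor ChREBP were mostly higher where they were called: 11 of 26 rose and 2 fell. Arrdc4, an arrestin-like regulator of glucose uptake, rose from 3.95 to 43.9 CPM (median 15.2) to 64.9 to 117 CPM (median 94.1) without overlap (2.44 ± 0.32, adjusted p = 5.82e-08). Klf10, a zinc-finger factor, rose from 10.2 to 42.9 CPM (median 26.9) to 55 to 111 CPM (median 87.7) without overlap (1.97 ± 0.21, adjusted p = 2.18e-10). Thrsp, a gene of fat synthesis, rose from 0.895 to 9.99 CPM (median 2.41) to 7.88 to 41.5 CPM (median 13.4) with overlap (2.23 ± 0.42, adjusted p = 8.96e-05). Txnip, the thioredoxin-interacting protein, one of the most glucose-responsive genes of β cells, had 115 to 415 CPM (median 140) and 261 to 628 CPM (median 527) (1.54 ± 0.35, adjusted p = 0.000876), where T2H 5 had the high T2H value. The E-box CACGTG, one arm of the element known for ChREBP and bound by many other factors, lay in the window of 1363 tested genes (10.7%), 154 called higher (12.4%), 111 called lower (10.1%) and 5 of 20 list members (25%). A pair of exact CACGTG copies with 5 bases between them lay in 0 windows. Pairs with inexact copies were not searched for, so this count does not show that ChREBP elements are absent. Arrdc4 is shown because it holds the E-box and had the smallest adjusted p of the 5; the stretch is chr7:68749239-68749488 (minus strand, RefSeq, GRCm38.p6), the 250 bases upstream of its start, with the E-box in capitals.
Arrdc4: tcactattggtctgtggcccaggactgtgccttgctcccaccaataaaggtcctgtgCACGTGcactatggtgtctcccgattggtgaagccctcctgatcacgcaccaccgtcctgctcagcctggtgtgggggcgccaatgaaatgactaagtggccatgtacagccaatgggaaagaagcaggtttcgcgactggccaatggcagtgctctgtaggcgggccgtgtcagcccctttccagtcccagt

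In glycolysis and gluconeogenesis 5 of 29 genes rose and 4 fell. Eno1, enolase (median 140 CPM in T2H against 309 to 666 CPM (median 380) in T2D; 1.3 ± 0.16, adjusted p = 1.91e-08), rose without overlap. Gpi1, glucose-6-phosphate isomerase (61.4 to 116 CPM (median 82.9) against 115 to 305 CPM (median 175); 1.08 ± 0.12, adjusted p = 8.72e-10), rose and overlapped at its edge. The enzymes that set fructose-2,6-bisphosphate, an activator of glycolysis, moved in opposite directions: Pfkfb3 rose from 0 to 2.66 CPM (median 0.788) to 13.2 to 26.3 CPM (median 17.8) (4.33 ± 0.64, adjusted p = 1.14e-06) and Pfkfb2 fell from 50.6 to 90 CPM (median 66.9) to 16.9 to 30.4 CPM (median 26.8) (-1.42 ± 0.18, adjusted p = 4.11e-08). Both were apart between the groups. Of 23 genes of the hypoxia response, which includes Pfkfb3, 8 rose and 5 fell, so the list did not move in 1 direction. P4ha2, a collagen prolyl hydroxylase, was apart (16.1 to 59.9 CPM (median 32.1) against 77.9 to 163 CPM (median 102); 1.52 ± 0.22, adjusted p = 7.09e-07).

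In the mitochondrion fewer genes were called. Of 29 genes of the tricarboxylic acid cycle and pyruvate entry 4 rose and 2 fell; the rises were 8 without T2H 1, 7 without T2D 7 and 2 without T2D 1. Idh2, the mitochondrial NADP isocitrate dehydrogenase, fell from 110 to 158 CPM (median 146) to 72.6 to 99.7 CPM (median 86.6) without overlap (-0.74 ± 0.12, adjusted p = 9.6e-06). Pdk1, a kinase that turns off pyruvate dehydrogenase, rose from 5.85 to 24.5 CPM (median 14.9) to 27.3 to 83.5 CPM (median 36.7) without overlap (1.47 ± 0.26, adjusted p = 2.82e-05). Of 44 genes of oxidative phosphorylation 5 rose and 4 fell, close to the background. Leaving out T2H 3, 4, 5 or 6 or T2D 1 or 7 gave 1 to 3 called higher, and leaving out T2H 3, 8 or 9 or T2D 2 or 5 gave 2 called lower. None was called higher when T2D 1 and T2H 1 were left out together or when only the compared groups were fitted.

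Most lipid genes that were called rose. Of 24 genes of cholesterol synthesis, 10 rose and none fell, 6 without T2D 5. Fdft1, squalene synthase, rose from 18.9 to 68.8 CPM (median 57.5) to 121 to 227 CPM (median 161) without overlap (1.70 ± 0.18, adjusted p = 1.7e-10), and Msmo1, a later enzyme of the pathway, from 58.2 to 111 CPM (median 70.7) to 108 to 205 CPM (median 119) (0.86 ± 0.15, adjusted p = 4.23e-05). Of 30 genes of fatty acid oxidation and PPAR targets 8 rose and 1 fell. Leaving out T2H 2, 7 or 8 gave 5 rises, and leaving out T2D 1 gave no fall. Plin2, a coat protein of lipid droplets, had 4.7 to 22.2 CPM (median 13.1) and 23.5 to 58 CPM (median 36.8), apart (1.47 ± 0.29, adjusted p = 0.000128). Of 30 targets of NRF2, the factor of the oxidative stress response, none rose and 1 fell: Nqo1, a quinone reductase, at 1.94 to 9.12 CPM (median 6.12) and 0.528 to 3.03 CPM (median 1.65) (-1.96 ± 0.33, adjusted p = 9.15e-06). Leaving out T2H 1, 5, 8 or 9 or T2D 2, 3 or 6 gave 1 to 3 rises in this list, and leaving out T2H 2, 4, 5 or 8 or T2D 6 gave 2 falls.

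Class I antigen presentation genes included 4 of 20 that rose and none that fell, and the summed level of the list was 1032 to 1525 CPM in T2H and 2057 to 2710 CPM in T2D, without overlap. H2-D1, a classical class I heavy chain, rose from 369 to 782 CPM (median 504) to 902 to 1743 CPM (median 1364) (1.33 ± 0.31, adjusted p = 0.00147), H2-K1, another, from 124 to 239 CPM (median 202) to 301 to 596.3 CPM (median 411) (1.06 ± 0.26, adjusted p = 0.0022), and H2-M3, a nonclassical heavy chain, from 9.51 to 20.3 CPM (median 13) to 20.3 to 43.8 CPM (median 28.9) (1.2 ± 0.19, adjusted p = 2.42e-06). All 3 were apart, H2-M3 by a gap smaller than the digits printed. The class I genes are near-identical copies that differ between strains, so reads may be split between them or lost in mapping to the reference strain, and the strain labels of the groups differ. Of 34 interferon response genes 1 rose and 2 fell; 2 rose without T2H 3, T2H 4 or T2D 4, and at most 1 fell without T2H 3, 4, 5, 6 or 7 or T2D 1, 3, 4, 5, 6 or 7. Of 23 genes of NF-kB and cytokines 3 rose and 2 fell; 1 rose without T2H 2, 5 or 6 or without T2D 2 or 4, and 1 fell without T2H 1, 3, 8 or 9 or T2D 1, 4, 5 or 6.

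Beside these genes stood the myeloid markers. The summed level of the 20 markers was 109 to 1359 CPM in T2H (median 233) and 345 to 2881 CPM in T2D (median 1304). Lyz2, lysozyme, had 3.34 to 113 CPM (median 21.6) and 15.1 to 576.9 CPM (median 177) (2.62 ± 0.79, adjusted p = 0.015), and Cd68, a macrophage lysosomal protein, had 0.0954 to 10.7 CPM (median 2.18) and 2.47 to 47.4 CPM (median 16.7) (2.22 ± 0.64, adjusted p = 0.0101). C1qa, a complement chain, had 29.2 to 120 CPM (median 39.6) and 102 to 159 CPM (median 120) (1.13 ± 0.32, adjusted p = 0.00804), and Laptm5, a lysosomal protein of blood cells, had 0.591 to 22.6 CPM (median 3.31) and 2.93 to 54.8 CPM (median 27) (1.96 ± 0.63, adjusted p = 0.023). The 9 calls became 18 without T2H 1, 1 without T2D 4, and 5 without any 1 of T2H 2, 3, 4, 6 or 8 or T2D 6. With a term for the myeloid share, 2 of the 20 class I genes were called higher, and the log2 fold change was 0.92 for H2-D1 and -1.65 for Ucn3. What share of the class I difference comes from myeloid RNA was not tested.

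Prolactin, growth hormone and leptin act through JAK2, and prolactin and growth hormone then act through STAT5. Prolactin is known to drive β cell growth in pregnancy. Of 24 tested genes of these pathways, 9 fell and 3 rose. Cish, a feedback inhibitor induced by STAT5, fell from 76.7 to 223 CPM (median 123) to 23.5 to 63.9 CPM (median 38.2) without overlap (-1.90 ± 0.30, adjusted p = 3.16e-06). Matn2, an extracellular matrix protein (104 to 467 CPM (median 207) against 23.95 to 65.3 CPM (median 27.8); -2.70 ± 0.40, adjusted p = 1.3e-06), Fkbp1b, an immunophilin of calcium channels (30 to 69.3 CPM (median 53.4) against 9.89 to 25.3 CPM (median 14.2); -1.75 ± 0.29, adjusted p = 8.16e-06), and Ivd, a leucine-breakdown enzyme (88.4 to 179 CPM (median 140) against 44.1 to 72 CPM (median 56.6); -1.18 ± 0.22, adjusted p = 8.58e-05), were apart as well. Prlr, the prolactin receptor, had 697 to 1748 CPM (median 831) and 527 to 908 CPM (median 648) (-0.60 ± 0.20, adjusted p = 0.0258), and its call was lost in 10 of 32 settings, among them without T2H 1 or 9 or T2D 3, 4 or 7. Lepr, the leptin receptor, was low in both groups (0.0156 to 2.18 CPM (median 1.02) and 0.015 to 1.84 CPM (median 0.718)) and was not called (-0.52 ± 0.59, adjusted p = 0.593).

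Of 26 tested genes of insulin signalling 6 fell and 1 rose; none rose without T2H 2, 3, 4, 5 or 8 or T2D 1, 3, 4 or 5. Igf1r, the receptor of insulin-like growth factor 1, fell from 7.24 to 26.5 CPM (median 13.1) to 2.43 to 7.25 CPM (median 6.32) (-1.16 ± 0.26, adjusted p = 0.0008), and Igfbp7, a secreted binding protein of these factors, from 24.7 to 83.3 CPM (median 51.4) to 5.89 to 40.6 CPM (median 17.6) (-1.32 ± 0.25, adjusted p = 0.000102). Both overlapped, Igf1r only where the lowest T2H and the highest T2D library met. Among 30 genes of cell adhesion and junctions 4 rose and 4 fell; leaving out T2D 4 gave 2 rises. Cldn8, a tight junction protein, fell from 54.6 to 262 CPM (median 111) to 4.02 to 46.4 CPM (median 9.93) (-3.14 ± 0.44, adjusted p = 4.91e-07), and Robo2, a Slit receptor that keeps endocrine cells in place in the islet, from 26.1 to 43 CPM (median 38.2) to 5.34 to 20.6 CPM (median 9.63) (-1.75 ± 0.21, adjusted p = 8.46e-09). Both were apart. Of 29 targets of cAMP and immediate early genes 2 rose, one of them Sik1, a salt-inducible kinase (0.181 to 3.87 CPM (median 1.31) against 4.39 to 14.1 CPM (median 5.95); 2.24 ± 0.44, adjusted p = 0.000159), and 1 rose without T2H 2, 3, 4, 7 or 8 or T2D 1, 4, 5 or 6. Of 22 genes of exocytosis 1 rose and 4 fell, and 2 fell without T2H 3, T2D 1 or T2D 3, while 2 rose without T2H 4.

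The T2H animals reach a greater age, so the T2D libraries were also set against the 4 T2H animals of 83 days or less. This comparison shares its T2D and 4 of its T2H libraries with the one above. It called 1732 genes (10.8%), 833 of them higher in T2D and the others lower (5.59% of all genes). Genes called in both with the same direction numbered 1488, which is 50.7% of the calls against all T2H animals and 85.9% of those against the young ones, and 0 were called in opposite directions. Against the young animals 11 of 19 maturity markers fell and 2 rose, and 18 of 34 proliferation genes fell and none rose. Of 26 progenitor genes, 9 rose and 1 fell.

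For single genes, against the young animals the log2 fold change was -1.80 for Ucn3, -2.31 for Slc2a2, -3.00 for Trpm5, 8.48 for Cck, 6.50 for Slc5a10 and -2.96 for Top2a. The young T2H libraries had 308 to 676 CPM of Ucn3 and 234 to 490 CPM of Slc2a2, above all T2D libraries. Ins1 (-0.53, adjusted p = 0.301), Pdx1 (-0.53, adjusted p = 0.128), Hspa5 (0.64, adjusted p = 0.108) and Txnip (1.17, adjusted p = 0.0741) were not called against the young animals. Iapp (0.98, adjusted p = 0.0231) and Pcsk1 (-1.03, adjusted p = 0.0291) were called only there, and the difference between the comparisons was not tested. The count fell to 1085 without T2H 4 and to 1023 without T2H 6, both of which are among the 4 young animals.

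The 5 older T2H animals (112 to 179 days) were compared with the 4 young ones in the same way. Here 28 genes (0.174%) were called, 4 higher and 24 lower in the older animals, and 2353 had an unadjusted p below 0.05. Of the 28, 4 (14.3%) were also called between T2D and T2H, against 18.3% of all genes tested. Egf, epidermal growth factor, was lower in older mice by 2.4 on the log2 scale, and Dglucy, a D-glutamate enzyme, by 1.58. Thyn1, a nuclear thymocyte protein, was higher by 0.91. DESeq2 called 265 genes in this comparison. Leaving out single T2H libraries gave 1 to 126 calls, so this count rests on each of these few animals.

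Whether the changes are those of diabetic β cells in general was asked with the NOD-based model, in which T cells destroy β cells. All of its animals were labelled NOD-ICR and Cherry/+; Ins2-Cre/+. The 4 diabetic animals (T1D, 98 to 150 days, 311, 356, 358 and above 600 mg/dl) were set against 7 non-diabetic ones (T1ND, 82 to 212 days, 108 to 245 mg/dl). All 7 T1ND and 3 of 4 T1D libraries were Qiagen extractions, in contrast to the T2H group. The difference of the 2 effects (T2D minus T2H, less T1D minus T1ND) was called in 345 genes (2.14%), 169 with a higher and 176 with a lower effect in the ob/ob comparison, and 304 of them were also called between T2D and T2H.

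The 5 highest differences were those of Cck, Sorcs2, Slc5a10, Dlk1 and Ache. The log2 difference of effects was 8.06 ± 1.69, adjusted p = 0.00293 for Cck, 5.51 ± 1.21, adjusted p = 0.00488 for Slc5a10, 5.17 ± 0.81, adjusted p = 6.11e-05 for Dlk1 and 5.93 ± 1.39, adjusted p = 0.009 for Sorcs2. Cck stood at 0.155 to 0.403 CPM in the T1D libraries and at 0 to 2.14 CPM in T1ND, against 19.1 CPM in the lowest T2D library. The median of Slc5a10 was also higher in T1D (5.29 CPM, range 1.86 to 6.37) than in T1ND (0.456 CPM). Every T1ND library but T1ND 5 had 0.185 to 0.657 CPM of Slc5a10. T1ND 5 lay above all T1D libraries and below the lowest T2D library (29.4 CPM). The part of T1ND 5 in the difference of Slc5a10 was not tested. Dlk1 stood at 4.43 to 8.39 CPM in T1D and 4.31 to 12.9 CPM in T1ND, ranges that T2D 1 (8.3 CPM) and T2D 4 (2.18 CPM) did not exceed. Ache, acetylcholinesterase, was another (4.90 ± 0.92, adjusted p = 0.000656): it rose from 0.445 to 6.66 CPM (median 1.72) in T2H to 6.77 to 50 CPM (median 19.3) in T2D and had a median of 4.19 CPM in T1ND and 1.36 CPM in T1D.

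Top2a, Ccnb1, Ube2c, Crhr1 and Syt10 had the 5 lowest differences. Of the 34 proliferation genes, 17 had a lower effect in the ob/ob comparison and none a higher one. Top2a (-4.46 ± 0.73, adjusted p = 0.000108), Ccnb1 (-4.19 ± 0.75, adjusted p = 0.000331) and Ube2c (-4.77 ± 0.78, adjusted p = 0.000108), a ubiquitin-conjugating enzyme of mitosis, had medians of 4.13, 3.65 and 4.22 CPM in T1ND and of 8.17, 11.6 and 9.68 CPM in T1D. In T2H and T2D the medians of Top2a were 9.61 and 1.08 CPM. The NOD-based libraries also held RNA of immune cells. The myeloid marker Cd68 had a mean of 25.3 CPM in T1ND and 74.4 CPM in T1D, against 3.53 CPM in T2H and 17.3 CPM in T2D. For Laptm5 the means were 30.3, 65.7, 5.91 and 24.6 CPM in the same order. Whether dividing immune cells add to the proliferation genes in T1ND and T1D was not tested. Crhr1 (-5.82 ± 0.76, adjusted p = 9.25e-07) was at 2.86 to 7.83 CPM in T1D and 3.14 to 8.83 CPM in T1ND, while T2D libraries had at most 0.404 CPM. For Syt10 the difference was -4.42 ± 0.90, adjusted p = 0.00196 in edgeR. The median of Syt10 was also lower in T1D (0.808 CPM) than in T1ND (5.64 CPM).

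For core identity genes and for Aldh1a3 a difference between the models was not called. It was 0.40 ± 0.47, adjusted p = 0.743 for Ucn3, -0.23 ± 0.67, adjusted p = 0.924 for Mafa, -1.11 ± 0.40, adjusted p = 0.145 for Slc2a2 and 3.25 ± 1.53, adjusted p = 0.303 for Aldh1a3, and a missed threshold does not show equal effects. Mean levels in T1ND and T1D were 500 and 91.9 CPM for Ucn3, 83.6 and 36.1 CPM for Mafa, and 263 and 122 CPM for Slc2a2. Aldh1a3 had means of 0.8 CPM in T1ND and 0.914 CPM in T1D, against 22.4 CPM in T2H and 206 CPM in T2D. Trpm5 (-1.62 ± 0.44, adjusted p = 0.0323), Ero1b (-1.14 ± 0.30, adjusted p = 0.022), G6pc2 (-1.22 ± 0.34, adjusted p = 0.0346) and Cox6a2 (-4.04 ± 1.06, adjusted p = 0.0249) had a lower effect in the ob/ob comparison, and Rfx6 (2.02 ± 0.35, adjusted p = 0.00021) a higher one. From T1ND to T1D the mean of Trpm5 went from 35.3 to 11.2 CPM, that of Ero1b from 1991 to 2186 CPM, that of G6pc2 from 2858 to 3488 CPM and that of Cox6a2 from 6.37 to 8.43 CPM. None of the 37 chaperone genes had a higher effect and 1, Ero1b, a lower one. Without the libraries above 20% acinar share, 98 genes were called in place of 345, and without T1D 4 the count was 200.

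**Figure D5:**
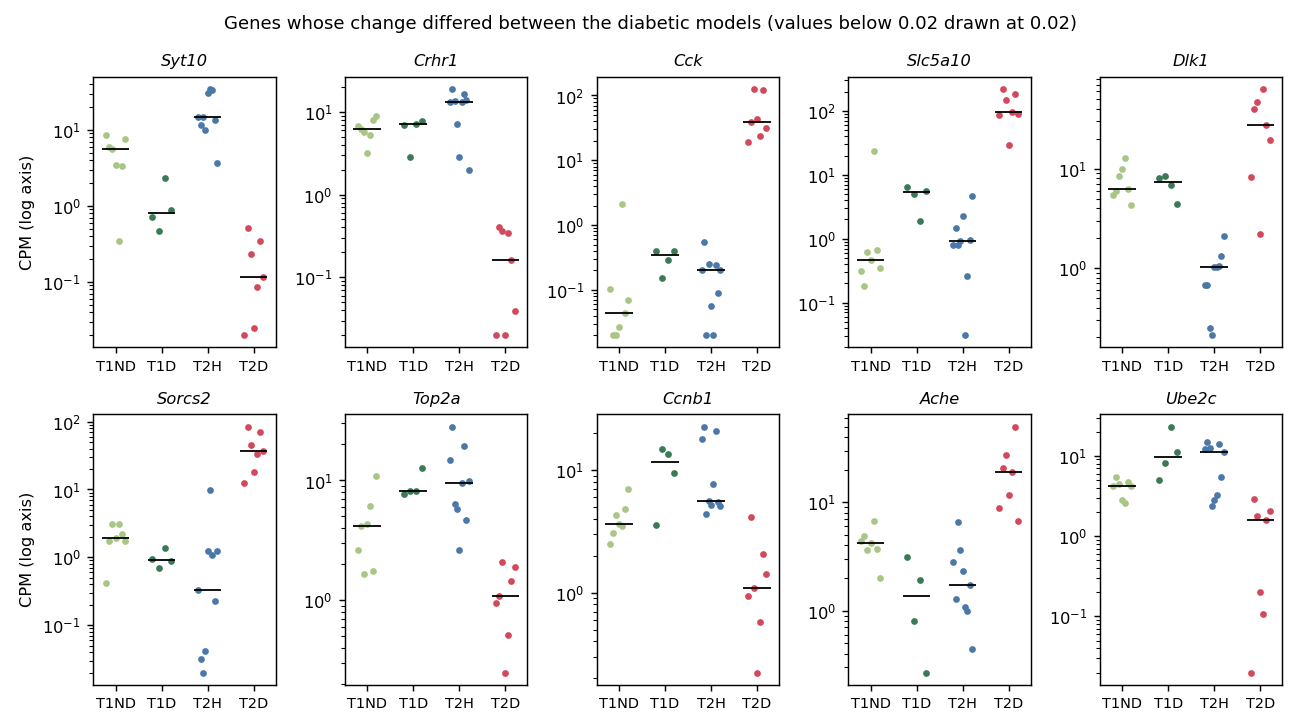
CPM in every library (log axis) of the 10 genes named for the difference of effects, in the non-diabetic and diabetic NOD-based groups (T1ND, T1D) and in T2H and T2D, with a line at each median. All T2D libraries lie above all T1D libraries for Cck, Slc5a10, Sorcs2 and Ache, while T2D 1 and T2D 4 do not for Dlk1, and the T2D median is the lowest of the 4 groups for Crhr1, Syt10, Top2a, Ccnb1 and Ube2c.

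An allele kept in a line carries its neighbouring chromosome with it, so the genes around Lep (chr6:29060221-29073876 in GRCm38) were counted apart. Within 5 Mb 8 of 52 tested genes were called between T2D and T2H (15.4%), within 10 Mb 18 of 97 (18.6%) and within 20 Mb 41 of 190 (21.6%). On the rest of chromosome 6 it was 122 of 640 (19.1%) and on the other chromosomes 18.2%. Genes with no overlap between the groups made up 5.15% of those within 10 Mb and 2.25% on other chromosomes. Of the 97 genes within 10 Mb, 5 had no overlap. Tspan33, a tetraspanin (19.9 to 39.6 CPM (median 26) against 49.5 to 90.4 CPM (median 61.6); 1.28 ± 0.16, adjusted p = 2.47e-08), Fam3c, a secreted factor (26.2 to 63.9 CPM (median 46.8) against 69.5 to 105 CPM (median 77.1); 0.90 ± 0.16, adjusted p = 1.89e-05), and Zfp800, a zinc-finger factor (12.2 to 17.2 CPM (median 14.5) against 5.19 to 10.6 CPM (median 8.41); -0.84 ± 0.14, adjusted p = 8.75e-06), were among the genes named for this stretch and each was apart. Other genes named for it are not described. Linked sequence and the diabetic state cannot be told apart for genes of this stretch.

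Within the diabetic group, T2D 1 (408 mg/dl) and T2D 4 (534 mg/dl) were the animals whose glucose could be read, and 5 were above the limit of 600 mg/dl. Over all tested genes, both animals lay on the same side outside the range of the other 5 in 10.4%, and of the 112 genes named here in 17. No test was made with 2 animals. Txnip had 295 and 261 CPM in these animals and 415 to 628 CPM in the other 5. Dlk1 had 8.3 and 2.18 CPM against 19.6 to 62.9 CPM. Slc5a10 (85 and 29.4 CPM against 88.5 to 217) and Sorcs2 (12.6 and 17.9 CPM against 33.3 to 84) were likewise lower. On the other side, Gc had 968 and 1169 CPM against 369 to 746 CPM, and the chaperone genes Hsp90b1 (2220 and 1973 CPM against 1545 to 1929), Creld2 (798 and 447 against 305 to 444) and Pdia6 (4177 and 2343 against 1568 to 1956) were higher. Both animals were TRIzol libraries, whereas 3 of the other 5 were Qiagen libraries, so glucose and extraction cannot be told apart in this contrast.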

How the data were processed

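The authors deposited expected counts per gene for 63 libraries, made with bcl2fastq 2.20.0.422, Bowtie 1.2.2 and RSEM 1.3.0 on mm10, per the submitters' processing notes. SMART-Seq v4 cDNA and Nextera XT libraries keep no strand, per the labels' protocols, so overlapping and antisense genes share reads. The deposited normalized table was not used. Expected counts were rounded, and genes passing edgeR's filterByExpr over the 9 groups were fitted in all 63 libraries, so that all groups share 1 estimate of spread: edgeR 4.0.16 (R 4.3.3, limma 3.58.1), TMM factors, group means and an extraction term, and a robust two-sided quasi-likelihood test, with p-values adjusted over 16092 genes by Benjamini-Hochberg and calls made below 0.05. CPM use TMM-scaled library sizes. The fit was tested on simulated data. Alternatives used DESeq2 1.42.0, voom, other filters, terms and libraries.

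Replicate numbers follow accession order. No 2 libraries of a group held identical values: correlations within the 2 groups were 0.911 to 0.979. The labels give each library its own age, glucose and weight, and 0 of 16 libraries went against the sex label. Of 884 genes on 41 lists, 878 were found.

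Genes were named by rule: the called genes with the 12 highest and 12 lowest fold changes, provided the higher group's mean reached 10 CPM and all T2D libraries lay on 1 side of the T2H median; the 6 most abundant called genes at least 2-fold changed in each direction; per list, the called members with the 4 smallest adjusted p (2 members where none is called); fixed anchor genes; up to 6 called genes within 10 Mb of Lep; the 5 highest and 5 lowest differences of effects; and 4 and 4 genes of the age comparison. Not every gene so named is described, and some are not reported here. Hsp90b1, Creld2, Dnajc3, Pdia6 and Ptgdr2 were named after their values were seen, for the element in their promoters. The members, lists and rules were chosen with earlier results of these data known.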

Additional observations from a re-analysis of the deposited data

Results flagged for a closer look

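Within a group of 7 or 9 libraries, the highest or lowest value was far from the nearest other one (Dixon's test at 95% on log2 values, for shares on the percent) in 18 of 234 groups tested; chance flags about 1 in 20 groups. T2H 9 stood apart for Mafa (31.3 CPM; the nearest other T2H library had 77.4), Gast (2.51 against 0.816), Dnajc3 (1183 against 635), Idh2 (110 against 132) and Nqo1 (1.94 against 4.97). T2D 1 stood apart for Creld2 (798 CPM against 447), Pdia6 (4177 against 2343), Nucb2 (1981 against 1078) and Eno1 (666 against 422). Single libraries stood apart for Acvr1c (T2D 2, 3.88 CPM), Sorcs2 (T2H 6, 9.88), Enpp1 (T2D 4, 39.9), Cartpt (T2H 2, 3.72), Ddit3 (T2D 7, 114), Ppp1r15a (T2H 1, 116) and Txnip (T2H 5, 415). T2D 3 had the high acinar share of 34.7% and T2H 1 the high myeloid share of 0.133%.

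For 10 genes the change from T2H to T2D differed from that between T1ND and T1D (edgeR, adjusted p 9.25e-07 to 0.009). The log2 difference was 8.06 for Cck, 5.93 for Sorcs2, 5.51 for Slc5a10, 5.17 for Dlk1 and 4.90 for Ache, and -5.82 for Crhr1, -4.77 for Ube2c, -4.46 for Top2a, -4.42 for Syt10 and -4.19 for Ccnb1.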

How the results depend on the processing

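The count of 2937 genes between T2D and T2H was within 1.5 times under the other alternatives run, but was 1293 when only the 16 libraries of the 2 groups were fitted and 25 with Qiagen libraries only (3 T2D and 1 T2H, where the T2H library is assumed to vary like the other groups). Leaving out each library gave 2425 to 3336. Against the T2H animals of 83 days or less, 1732 became 493 with only the compared groups and 893 without the libraries above 20% acinar share, where 35.2% of calls were higher in place of 48.1%; leaving out each library gave 1023 to 2085. For older against younger T2H, 28 became 265 with DESeq2, 17 with TRIzol only, 13 with a term for sequencing S numbers above 60, and 1 to 126 leaving out each library. For the difference of effects, 345 became 558 with DESeq2 and 98 without the high-acinar libraries. Leaving out each T1D library gave 200 to 315. For this count, libraries of the other groups were not left out singly. The insulin share difference of -5.08 points was 6.82 against the young T2H animals and -8.17 to -2.16 leaving out each library.

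Of 112 named genes 100 were called. Of these, 82 stayed called under all 31 alternatives other than Qiagen only, and 92 kept their direction there. With Qiagen libraries only the log2 fold changes turned to 1.04 for Glp1r, 0.88 for Slc39a8, -0.23 for Hsp90b1, -0.89 for Creld2, -0.31 for Dnajc3, -0.37 for Pdia6, -0.12 for Tmed3 and 0.03 for Nqo1; the cause was not tested. Lyz2 was -0.10 with a term for myeloid share, a share that contains Lyz2. No paired analysis was possible because replicate numbers only follow accession order and tie no T2D animal to a T2H animal. With 7 and 9 animals and 1 estimate of spread over all groups, small changes of genes at a few CPM were not detectable.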

Other observations

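When 1 T2H library was left out and the comparison refitted, the left-out library had the most T2D-like value of the 9 T2H libraries (the highest for a gene then higher in T2D, the lowest for one then lower) in a share of the genes then called. This share was 29.5% for T2H 9 and 29.1% for T2H 1, and 5.65 to 17.8% for the other 7. Among genes not called the shares were 16.4% for T2H 9, 15.3% for T2H 1 and 6.23 to 13.2% for the others. T2H 9 was the animal of 179 days, 271 mg/dl and 60.4 g from a Qiagen column, and T2H 1, 56 days old, had the high myeloid share.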
